A study of Mus musculus with 16 samples.

Results

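Apelin, adrenomedullin and endothelin are secreted peptides that act on the vessel wall, and they were described here together with their receptors in tail tendon fascicles, the thin collagen strands of the mouse tail. The 10 members were a set of vasoactive peptides and receptors, chosen with earlier results of these data known. They were matched by gene symbol among the 25719 genes that the count files list. All 10 were found: Apln (ENSMUSG00000037010, chromosome X), Aplnr (ENSMUSG00000044338, chromosome 2), Adm (ENSMUSG00000030790, chromosome 7), Calcrl (ENSMUSG00000059588, chromosome 2), Ramp1 (ENSMUSG00000034353, chromosome 1), Ramp2 (ENSMUSG00000001240, chromosome 11), Ramp3 (ENSMUSG00000041046, chromosome 11), Edn1 (ENSMUSG00000021367, chromosome 13), Ednra (ENSMUSG00000031616, chromosome 8) and Ednrb (ENSMUSG00000022122, chromosome 14). The study sequenced RNA from 8 wild type (WT) libraries and 8 knockout (KO) libraries of genotype ScxCre;Vhlf/f. In these mice Cre recombinase, driven by control sequences of the tendon transcription factor gene Scx, deletes the floxed Vhl alleles in cells of the Scx lineage, and cells of other lineages in the strand keep the gene. The labels name no treatment, age, sex, time point or batch, and they give the cell type as all cells of the tissue. They do not say that each library came from its own animal, so p-values measure the spread between these libraries.

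Vhl encodes the substrate receptor of a ubiquitin ligase that marks hydroxylated HIF alpha subunits for degradation, and loss of Vhl leaves these hypoxia-inducible transcription factors active at normal oxygen. Apelin is made as a precursor and signals through the G protein coupled receptor Aplnr, found chiefly on endothelial cells. Adrenomedullin signals through Calcrl, a receptor that works only as a pair with one of the RAMP proteins: Ramp2 and Ramp3 give adrenomedullin receptors, and Ramp1 gives the receptor for calcitonin gene-related peptide (CGRP), a peptide of sensory nerves. Endothelin-1 is cut from its precursor by endothelin converting enzymes and acts on Ednra, which constricts vessels from the smooth muscle side, and on Ednrb, which is also present on endothelium. Hypoxia-inducible factors bind the core letters ACGTG or GCGTG, and Adm is a textbook target.

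Of the 10 members, 8 passed the expression filter and were tested with the quasi-likelihood F test of edgeR (QL F test), with p-values adjusted by the Benjamini-Hochberg method over all tested genes. Apln, Adm, Ednra and Ednrb rose in the knockout, Ramp1 fell, and Calcrl, Ramp2 and Edn1 did not pass the threshold. Aplnr and Ramp3 had too few counts for the filter and are described by their values. The 5 calls make up 62.5% of the tested members, beside 48.3% called among all 14803 tested genes (25.6% higher and 22.7% lower), so the number of calls in itself does not set these genes apart. Their sizes were uneven: by log2 fold change, largest increase first, Apln ranked 11 and Adm 99 of 14803. Apln, Adm and Ednra were called at least 2-fold higher, as were 8.3% of all tested genes, and Apln and Adm at least 16-fold higher, as were 0.966%. Ramp1 was called at least 2-fold lower, as were 4.91%. For 4 of the 8 tested members no library of one genotype reached the other, Apln, Adm and Ednra being higher and Ramp1 lower in every knockout library, beside 19.4% of all tested genes (10.8% with the knockout higher and 8.61% lower).

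**Figure D1:**
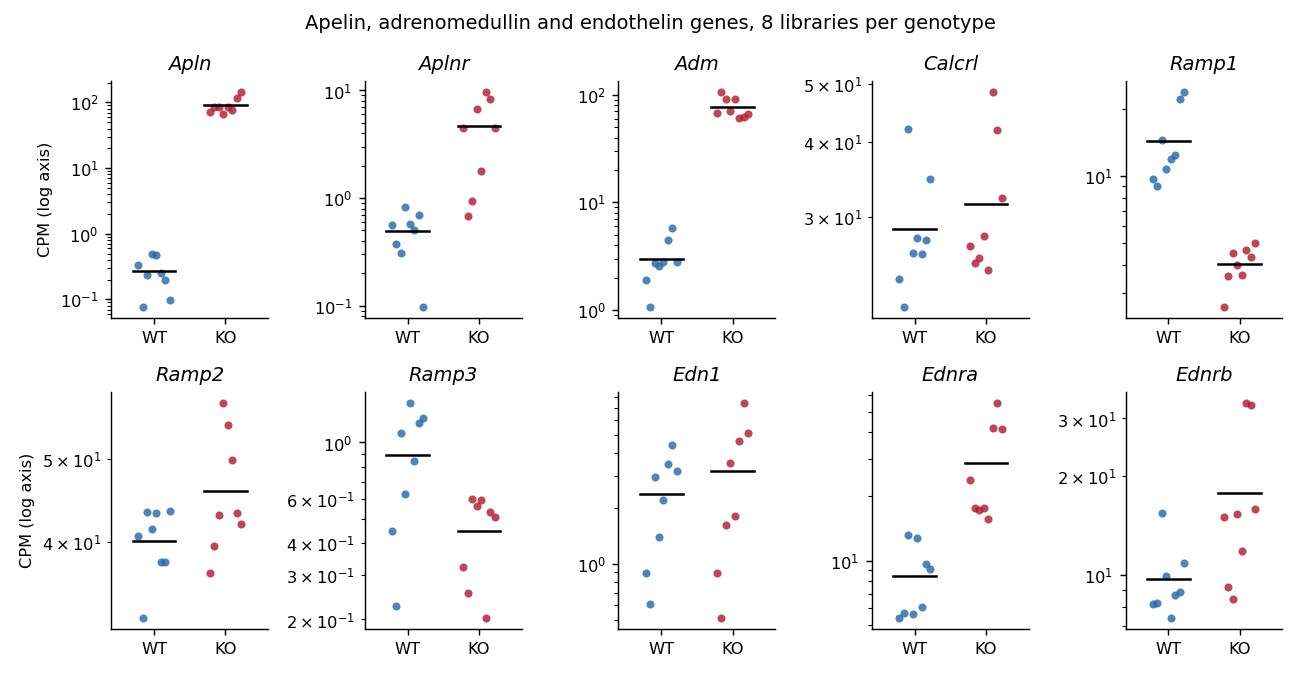
Level of each of the 10 genes in CPM (counts scaled to a common library size, with TMM factors) on log axes that differ between panels. Each point is a library (8 WT in blue, 8 KO in red) and the black line is the group mean. The groups stand wholly apart for Apln, Adm, Ednra and Ramp1 and overlap for the other 6 genes.

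The promoters of the 4 genes of these peptide systems with the largest increases, Apln, Adm, Adm2 and Ece2, are shown because they differ in whether they hold the core letters bound by hypoxia-inducible factors. Sequences are RefSeq windows of GRCm38.p6, 250 bases before the annotated start, read 5′ to 3′ on the gene's strand, and capitals mark any match to ACGTG or GCGTG on either strand. The windows lie at chrX:48034854-48035103 (minus strand) for Apln, chr7:110627407-110627656 (plus strand) for Adm, chr15:89322470-89322719 (plus strand) for Adm2 and chr16:20629601-20629850 (plus strand) for Ece2.
Apln: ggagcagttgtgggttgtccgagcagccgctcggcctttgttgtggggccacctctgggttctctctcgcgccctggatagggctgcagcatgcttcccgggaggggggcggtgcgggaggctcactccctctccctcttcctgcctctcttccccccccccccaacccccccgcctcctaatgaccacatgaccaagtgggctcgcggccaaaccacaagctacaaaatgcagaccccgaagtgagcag
Adm: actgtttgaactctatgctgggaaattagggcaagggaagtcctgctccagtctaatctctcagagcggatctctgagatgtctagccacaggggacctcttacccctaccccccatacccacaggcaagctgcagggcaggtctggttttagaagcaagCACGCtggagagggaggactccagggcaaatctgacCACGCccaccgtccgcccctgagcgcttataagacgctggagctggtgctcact
Adm2: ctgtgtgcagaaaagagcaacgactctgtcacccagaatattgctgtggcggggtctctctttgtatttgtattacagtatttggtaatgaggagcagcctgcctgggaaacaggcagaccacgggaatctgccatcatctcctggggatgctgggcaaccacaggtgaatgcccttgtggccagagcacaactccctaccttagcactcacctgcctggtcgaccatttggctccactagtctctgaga
Ece2: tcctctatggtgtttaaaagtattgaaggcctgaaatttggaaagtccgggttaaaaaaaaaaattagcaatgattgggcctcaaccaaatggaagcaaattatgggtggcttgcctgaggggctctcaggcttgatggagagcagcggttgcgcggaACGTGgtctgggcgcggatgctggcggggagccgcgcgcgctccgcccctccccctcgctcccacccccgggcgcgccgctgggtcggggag
The Adm window held 2 matches, both GCGTG on the reverse strand, starting 90 and 54 bases before the start. Ece2 had a single ACGTG, 92 bases before the start. No match was found in the windows of Apln and Adm2, which says only that these letters are not within those 250 bases. Of all 32817 windows of this length in the table, 38.6% held at least one of the motifs (16.6% ACGTG and 28.1% GCGTG), so a match is common.

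Of the 10 members, 8 were in the promoter table, and Aplnr and Ramp2 were not. Within 250 bases before to 50 bases after the start, a window in which 43.8% of all promoters hold a match, Adm, Calcrl, Ramp3, Edn1 and Ednrb had one and Apln, Ramp1 and Ednra did not. Among the called members Adm and Ednrb had a match and Apln, Ramp1 and Ednra did not. Edn1, which was not called, had an ACGTG on the reverse strand from base 22 after its start, shown in capitals in 30 bases at chr13:42301485-42301514 (plus strand).
Edn1: tatctctggctgCACGTtgcctgtgggtga

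Total counts ran from 10488355 to 18753254 in KO libraries against from 10792900 to 16379401 in WT libraries, and a count of 3 corresponded to between 0.145 and 0.336 CPM. Vhl, the targeted gene, was at 9.34 ± 1.25 CPM in KO libraries against 20.4 ± 3.69 CPM in WT libraries (SD, n = 8), with every knockout library below every wild type library. Fold changes are on the TMM scale, where the median of all tested genes was 0.02. Scaling to total counts moved that median to 0.32 and the share of calls that were higher from 53.0% to 85.3%. Cell type markers moved as well, beside 25.6% of all tested genes called higher and 22.7% lower. Of 12 tested endothelial markers 10 rose and 0 fell, and their summed level ran from 82.3 to 615 CPM in KO libraries against from 52.9 to 72.7 CPM in WT libraries, with Tie1, Cldn5, Sox17, Sox18 and Robo4 at or under 3 counts in every wild type library. Of 10 tested mural cell markers 7 rose and 1 fell, with a summed level of 376 to 2287 CPM against 358 to 515 CPM. Skeletal muscle markers, of which 1 of 12 rose, differed between libraries of the same genotype: the score, the mean log2 CPM of the list, was 8.13 to 8.64 in knockout libraries 6, 7 and 8 and 2.80 to 5.60 in the other 5, and ran from 0.728 to 7.96 in the wild type. Since libraries are of whole tissue, more cells of a type and more RNA per cell cannot be told apart.

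Apln, the gene of the apelin precursor, went from near the detection limit to a moderate level. In the wild type it had 1 to 7 counts per library, with a lowest, median and highest level of 0.0755, 0.243 and 0.487 CPM. In the knockout the corresponding levels were 66.4, 84.2 and 145 CPM. Every knockout library thus lay far above every wild type library, and the means were 91.1 ± 26.2 and 0.270 ± 0.156 CPM (SD, n = 8). The log2 fold change was 8.34 (standard error 0.256, edgeR QL F test, adjusted p = 2.13e-14). Knockout libraries 7 and 8 were the highest, at 115 and 145 CPM, and the other 6 lay between 66.4 and 85.3 CPM.

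Aplnr, the apelin receptor, was low in both genotypes and uneven among knockout libraries. It had 1 to 12 counts per library in the wild type (0.0964 to 0.835 CPM, median 0.533) and 8 to 192 in the knockout (0.679 to 9.72 CPM, median 4.51). In 7 of 8 knockout libraries the level was above the highest wild type library, and knockout library 2, at 0.679 CPM, was within the wild type range. The default filter left the gene out. With the filter set to a mean count of at least 10, its log2 fold change was 3.21 (standard error 0.545, edgeR QL F test, adjusted p = 1.08e-04). Aplnr was mostly higher where endothelial markers were higher. The lowest knockout libraries for Aplnr, replicates 2 and 3 at 0.679 and 0.938 CPM, had 4.58 and 8.87 CPM of the endothelial adhesion gene Pecam1, and replicates 6 and 7, at 9.72 and 8.33 CPM, had 107 and 148 CPM. Replicate 8 had 93.8 CPM of Pecam1 and 4.49 CPM of Aplnr. The part of endothelial RNA in the Aplnr difference was not tested.

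Peptide and receptor did not rise to the same degree. The log2 ratio of Apln over Aplnr within a library was 4.67 ± 1.39 in KO libraries against -0.61 ± 0.46 in WT libraries (SD, n = 8), a difference of 5.27 (two-sided exact permutation test, p = 0.000155, the smallest that the 12870 assignments allow; adjusted over the 7 ratios, 3.63e-04). The ranges did not overlap, at 2.96 to 6.67 and -1.28 to 0.00. In the wild type Apln had 1 to 7 counts per library and Aplnr 1 to 12, so the wild type ratio depends on the prior count. With other prior counts and a replicate block the difference was 4.96 to 5.54. Knockout library 2, with the lowest Aplnr, had the highest ratio.

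Among the other apelin system genes listed for description, 2 of 4 were tested, 0 rose and 1 fell, beside 48.3% called among all tested genes. Mme encodes neprilysin, a membrane peptidase that cuts apelin among other peptides. It ran from 19.4 to 32.6 CPM in the wild type, median 26.4, and from 1.52 to 8.57 CPM in the knockout, median 3.83, with no overlap. Its log2 fold change was -2.60 (standard error 0.242, edgeR QL F test, adjusted p = 9.54e-08). Furin, a proprotein convertase, was at 122 ± 13.6 and 119 ± 12.3 CPM (SD, n = 8) and did not pass the threshold (log2 fold change 0.03). Apela, the gene of the other apelin receptor ligand, had 0 counts in every library.

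Adm, the adrenomedullin gene, rose in every knockout library. Its lowest, median and highest levels were 1.06, 2.75 and 5.76 CPM in the wild type and 60.8, 69.5 and 106 CPM in the knockout. The lowest knockout library was thus more than 10 times the highest wild type library. Means were 76.9 ± 16.8 and 3.01 ± 1.47 CPM (SD, n = 8), and the log2 fold change was 4.68 (standard error 0.247, edgeR QL F test, adjusted p = 7.44e-11). Adm was lowest in the knockout libraries with most muscle RNA, at 60.8 to 66.3 CPM in replicates 6, 7 and 8 and 67.9 to 106 CPM in the other 5.

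Calcrl, the receptor shared by adrenomedullin and CGRP, did not pass the threshold. It ran from 21.2 to 42.1 CPM in the wild type, median 26.8, and from 24.5 to 48.4 CPM in the knockout, median 27.4. The log2 fold change was 0.14 (95% interval -0.17 to 0.46; edgeR QL F test, adjusted p = 0.483), an interval that does not hold a 2-fold change in either direction but leaves room for smaller ones. Without the 4 libraries of the highest muscle score (knockout 6, 7 and 8 and wild type 5) the value was -0.14 (adjusted p = 0.441).

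Of the RAMP partners, Ramp1 fell and Ramp2 did not pass the threshold. Ramp1, the CGRP receptor partner, ran from 9.06 to 23.8 CPM in the wild type, median 12.1, and from 2.59 to 5.00 CPM in the knockout, median 4.18. All 8 knockout libraries lay below all wild type libraries, and the log2 fold change was -1.82 (standard error 0.204, edgeR QL F test, adjusted p = 5.19e-07). Wild type replicates 7 and 8, at 22.2 and 23.8 CPM, stood above the other 6, which reached 14.6 CPM. Ramp2, the adrenomedullin receptor partner, ran from 32.6 to 43.5 CPM in the wild type, median 41.0, and from 36.9 to 58.1 CPM in the knockout, median 43.1. Only knockout replicates 4, 5 and 6 exceeded the wild type range, and the log2 fold change was 0.20 (95% interval 0.02 to 0.38; edgeR QL F test, adjusted p = 0.0827). Exons of Ramp2 overlap those of Vps25 on the same strand, so its counts are uncertain, and the call depends on the scaling: with total counts the value was 0.49 (adjusted p = 5.91e-04). Ramp3 was near the detection limit, with 3 to 12 counts per library in KO libraries against 3 to 15 in WT libraries (medians 0.521 and 0.967 CPM), and its ranges overlapped. With no expression filter its log2 fold change was -0.97 (standard error 0.335, edgeR QL F test, adjusted p = 0.0257).

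The mix of RAMP transcripts shifted with genotype. The log2 ratio of Ramp1 over Ramp2 within a library was -3.47 ± 0.31 in KO libraries against -1.56 ± 0.48 in WT libraries (SD, n = 8), with no overlap and a difference of -1.91 (exact permutation test, p = 0.000155; adjusted over the 7 ratios, 3.63e-04). Ramp3 over Ramp2 differed by -0.90 (exact permutation test, adjusted p = 0.00689), with overlapping ranges and few Ramp3 counts. Calcrl over Ramp2 was -0.56 ± 0.42 and -0.51 ± 0.23 (SD, n = 8), a difference of -0.06 that is smaller than the SD of either group (exact permutation test, adjusted p = 0.738). Adm over Calcrl moved by 4.59, from -3.30 ± 0.65 to 1.30 ± 0.63 (SD, n = 8; exact permutation test, p = 0.000155; adjusted, 3.63e-04). The ratios are nearly independent of the library scaling, since both genes come from the same library.

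Of 9 other adrenomedullin and CGRP genes, 5 were tested, 1 rose and 1 fell (40.0% called, beside 48.3% of all tested genes). Adm2, the gene of intermedin, a relative of adrenomedullin that uses the same receptors, had 2 counts in wild type replicate 4 and 0 in the other wild type libraries. The knockout ran from 12.6 to 20.8 CPM, with a mean of 16.2 ± 2.93 CPM (SD, n = 8), at least 48.1-fold higher than the highest per-library floor of 3 counts. Its fitted log2 fold change was 9.03 (edgeR QL F test, adjusted p = 2.22e-14), which depends on the prior count. Pam, the enzyme that amidates the C-terminus of adrenomedullin and many other peptides, ran from 981 to 1298 CPM in the wild type, median 1165, and from 714 to 933 CPM in the knockout, median 824. The groups did not overlap (log2 fold change -0.51, standard error 0.0793, edgeR QL F test, adjusted p = 2.61e-05). Ackr3, a scavenging receptor that also binds adrenomedullin, was at 121 ± 23.9 and 133 ± 24.0 CPM (SD, n = 8) and did not pass the threshold. Calca, Calcb and Calcr had at most 6 counts in any library and Iapp had 0, so RNA of the CGRP and amylin precursors was at or near the detection limit in the tissue.

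**Figure D2:**
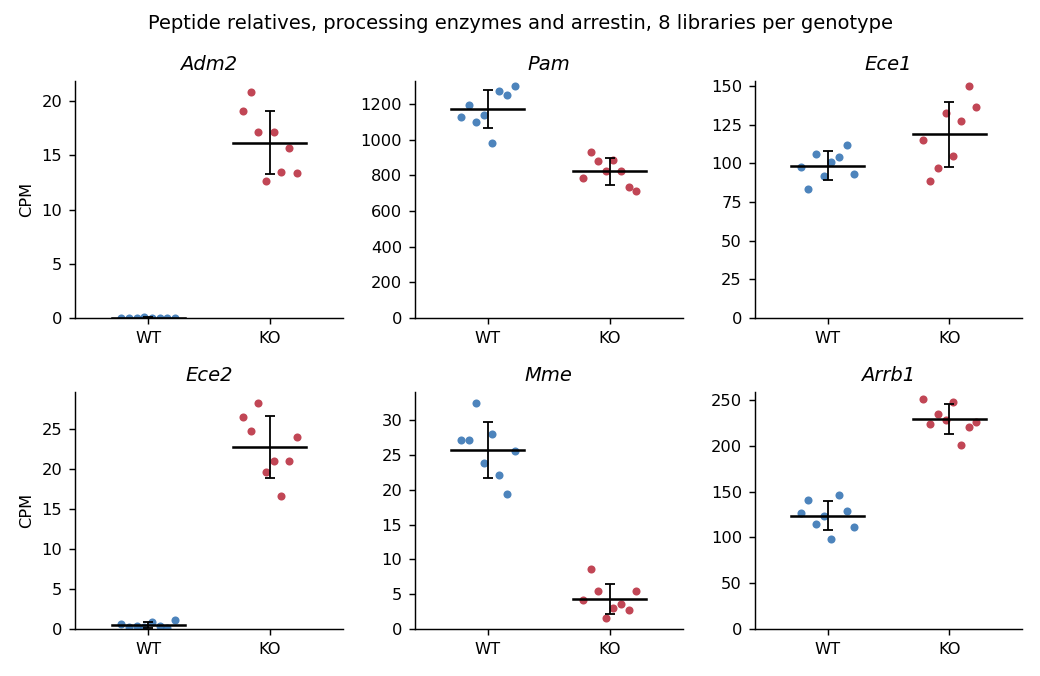
Levels in CPM on linear axes of a peptide relative (Adm2), an amidating enzyme (Pam), endothelin converting enzymes (Ece1, Ece2), a peptide degrading enzyme (Mme) and an arrestin (Arrb1). Points are libraries, the wide black line is the group mean and bars are SD (n = 8). Adm2, Ece2 and Arrb1 were higher and Pam and Mme lower in every knockout library, while the Ece1 ranges overlap.

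Edn1, the endothelin-1 gene, did not pass the threshold. It ran from 0.604 to 4.37 CPM in the wild type, median 2.58, and from 0.509 to 7.46 CPM in the knockout, median 2.68. The ranges overlapped, with 3 knockout libraries above and 1 below all wild type libraries, and the log2 fold change of 0.45 had a wide 95% interval, -0.50 to 1.41 (edgeR QL F test, adjusted p = 0.466). Within the knockout, replicates 6, 7 and 8 had 4.61 to 7.46 CPM and the other 5 had 0.509 to 3.53 CPM. Without the 4 libraries of the highest muscle score the fold change was -0.50 (adjusted p = 0.450). Of its relatives, Edn2 had at most 12 counts in any library and Edn3 at most 2.

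Ednra, the receptor that constricts vessels, rose in every knockout library. Its lowest, median and highest levels were 5.37, 7.61 and 13.2 CPM in the wild type and 15.7, 20.8 and 55.2 CPM in the knockout. The gap between the groups was small and the spread within the knockout large. The log2 fold change was 1.78 (standard error 0.322, edgeR QL F test, adjusted p = 2.57e-04). Knockout replicates 6, 7 and 8, those with most muscle RNA, had 41.6 to 55.2 CPM, and the other 5 had 15.7 to 23.8 CPM. Without the 4 libraries of the highest muscle score Ednra still passed, at 1.23 (adjusted p = 1.86e-04), and a muscle score covariate gave 1.24 (adjusted p = 1.75e-04). Within the knockout Ednra also varied with the mural marker score (r = 0.94, rho = 0.83, exact permutation test, adjusted p = 0.0137 and 0.0671). The parts of mural and endothelial RNA in the Ednra difference were not tested.

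Ednrb rose less and less firmly. It ran from 7.38 to 15.4 CPM in the wild type, median 8.76, and from 8.45 to 33.6 CPM in the knockout, median 15.2. Only 3 of 8 knockout libraries, replicates 6, 7 and 8, exceeded the highest wild type library. The log2 fold change was 0.88 (standard error 0.287, edgeR QL F test, adjusted p = 0.0181). It lost the threshold without the 4 libraries of the highest muscle score, at 0.25 (adjusted p = 0.296), and with a muscle score covariate, at 0.51 (adjusted p = 0.167). Within the knockout Ednrb varied with the endothelial and mural scores (r = 0.89 and 0.87, exact permutation test, adjusted p = 0.0274 and 0.0382). Its relation to the muscle score did not pass (r = 0.79, adjusted p = 0.0812). In the wild type the 3 values of r were -0.04, -0.15 and -0.04. The parts of endothelial, mural and muscle RNA in the difference were not tested apart from each other.

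The balance of the receptors and of ligand to receptor also differed. Ednra over Ednrb was 0.71 ± 0.40 in KO libraries against -0.25 ± 0.50 in WT libraries on the log2 scale (SD, n = 8), a difference of 0.96 with overlapping ranges (exact permutation test, p = 0.00186; adjusted, 0.00261). Edn1 over Ednra was -3.36 ± 0.85 and -1.90 ± 0.73 (SD, n = 8), a difference of -1.46 (exact permutation test, p = 0.00171; adjusted, 0.00261). Its ranges also overlapped, at -4.75 to -2.27 in KO libraries and -2.95 to -0.79 in WT libraries. Edn1 had as few as 6 counts in a KO library and 8 in a WT library.

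**Figure D3:**
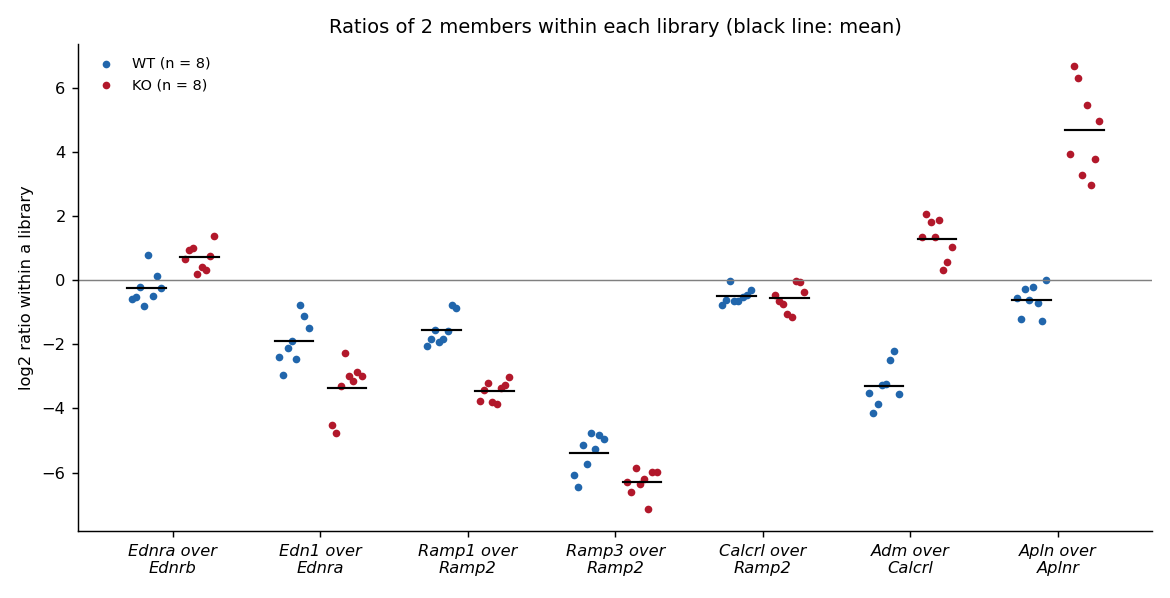
Log2 ratio of 2 genes within each library for the 7 pairs, with WT in blue, KO in red and the mean as a black line (n = 8). The groups stand apart for Ramp1 over Ramp2, Adm over Calcrl and Apln over Aplnr, and they coincide for Calcrl over Ramp2.

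Of 7 other endothelin system genes, 2 were tested and both rose, beside 25.6% of all tested genes called higher. Ece2, an endothelin converting enzyme of intracellular compartments, went from 0.0993 to 1.06 CPM in the wild type, median 0.405, to 16.7 to 28.2 CPM in the knockout, median 22.5. No library overlapped, and the log2 fold change was 5.56 (standard error 0.248, edgeR QL F test, adjusted p = 1.48e-12). Exons of Ece2 overlap those of the counted gene Gm49333 on the same strand, so reads of the pair may be split between them. Ece1, the main converting enzyme of endothelial cells, ran from 83.2 to 112 CPM in the wild type and from 88.3 to 150 CPM in the knockout. Its log2 fold change was 0.27 (standard error 0.0973, edgeR QL F test, adjusted p = 0.0279), and it lost the threshold without any of knockout replicates 4, 7 and 8 or wild type replicates 2, 4 and 8, at 0.21 to 0.26. It also lost it with a muscle score covariate and without the 4 libraries of the highest muscle score, where it was lowest, at 0.13 (adjusted p = 0.317).

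Levels between genes can be compared only per length. In CPM per kb of exon, mean levels in the wild type were in the order Ramp2 (12.1), Calcrl (5.87), Ramp1 (4.73), Ednrb (2.27), Adm (1.86), Ednra (1.54), Edn1 (1.11), Ramp3 (0.645), Aplnr (0.134) and Apln (0.0857). In the knockout the order was Adm (47.5), Apln (28.9), Ramp2 (13.9), Calcrl (6.47), Ednra (5.27), Ednrb (4.17), Edn1 (1.49), Ramp1 (1.34), Aplnr (1.25) and Ramp3 (0.324). The peptide genes Adm and Apln thus moved from the middle and the end of the order to its top. Neighbours such as Adm and Ednra in the wild type, or Ednra and Ednrb, and Edn1, Ramp1 and Aplnr, in the knockout, differ by less than the spread of their levels between libraries.

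**Figure D4:**
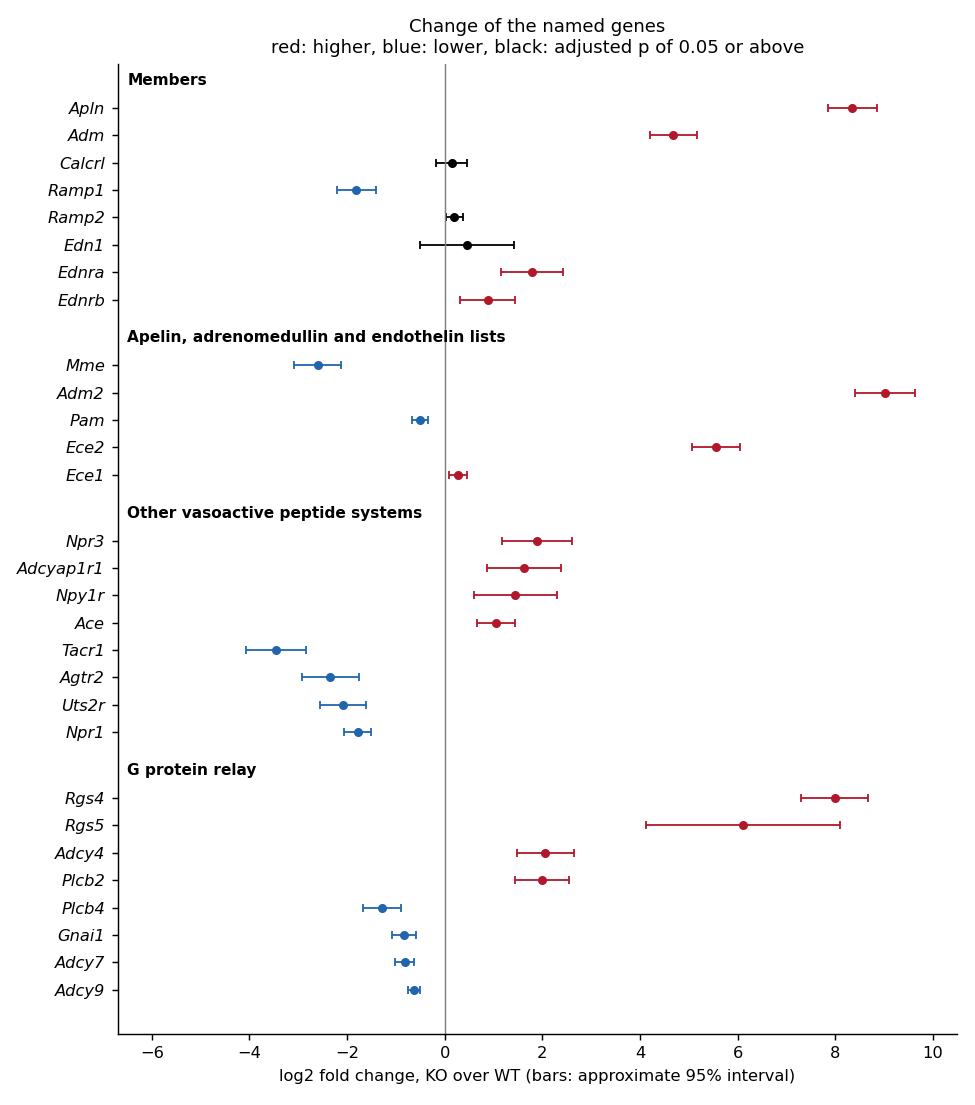
Log2 fold change of the knockout over the wild type for the tested members and the named genes of the other lists, with an approximate 95% interval from 8 libraries per genotype. Red is higher, blue is lower and black did not pass an adjusted p of 0.05. Adm2, Apln and Rgs4 lie farthest to the right and Tacr1 farthest to the left.

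Other vasoactive systems moved in both directions. The 31 genes were listed for description with earlier results of these data known. Of these, 13 were tested, 5 rose and 6 fell. The median log2 fold change of those tested was -0.45, beside 0.02 for all tested genes. The calls made up 84.6% of those tested, beside 48.3% of all tested genes. Npr3, the clearance receptor of natriuretic peptides, went from 9.60 ± 4.32 to 35.7 ± 20.1 CPM (SD, n = 8), and Ace, the angiotensin converting enzyme, from 19.8 ± 4.65 to 41.2 ± 13.8 CPM (SD, n = 8). The Npr3 ranges overlapped. Both were highest in knockout replicates 6, 7 and 8, those with most muscle RNA. Npr3 had 56.9 to 63.1 CPM there and 15.5 to 29.3 in the other 5, and Ace 51.4 to 61.1 and 28.8 to 43.4. Npr3 and Ace kept their call in all 10 alternative fits. The PACAP receptor gene Adcyap1r1 (log2 fold change 1.62) and the neuropeptide Y receptor gene Npy1r (1.45) also rose, and both lost the threshold without the 4 libraries of the highest muscle score, at 0.90 and 0.69. Npr1, the guanylyl cyclase receptor for the cardiac natriuretic peptides, fell from 46.1 ± 8.29 to 13.4 ± 3.12 CPM (SD, n = 8) with no overlap. The urotensin receptor gene Uts2r fell from 220 ± 83.1 to 51.7 ± 11.9 CPM (SD, n = 8), the substance P receptor gene Tacr1 from 9.57 ± 4.28 to 0.854 ± 0.378 CPM (SD, n = 8) and the angiotensin type 2 receptor gene Agtr2 from 4.18 ± 1.16 to 0.846 ± 0.540 CPM (SD, n = 8). Their log2 fold changes were -2.09, -3.46 and -2.34.

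Among 23 genes of the G protein relay that these receptors use, all 23 were tested, 7 rose and 6 fell, with a median of -0.00. The calls made up 56.5%, near the 48.3% called among all tested genes. The largest increases were in Rgs4 and Rgs5, of the RGS proteins that speed the switching off of G alpha subunits, while Rgs2 was at 14.5 ± 4.90 CPM in KO libraries against 15.3 ± 5.27 CPM in WT libraries (SD, n = 8) and did not pass the threshold. Rgs4 had at most 3 counts in any wild type library and 14.0 to 35.4 CPM in the knockout, at least 64.2-fold higher on average than the floor of 3 counts. Rgs5, which is also a mural cell marker, ran from 0.151 to 19.6 CPM in the wild type and from 34.1 to 723 CPM in the knockout (log2 fold change 6.11, standard error 1.01, edgeR QL F test, adjusted p = 1.49e-04). Arrb1, a beta arrestin that uncouples activated receptors, rose from 124 ± 15.6 to 229 ± 16 CPM (SD, n = 8) with no overlap, and it is named after its values were seen. The adenylyl cyclase gene Adcy4 (2.06) and the phospholipase C gene Plcb2 (1.99) rose, and Plcb4 (-1.29), Gnai1 (-0.84), Adcy7 (-0.82) and Adcy9 (-0.62) fell, each with no overlap between the groups. These were named as the largest called changes of the list, and 19.4% of all tested genes had no overlap.

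Within the knockout, several members varied between libraries together with vessel and muscle markers. In each genotype the 8 tested members were related to the endothelial, mural and muscle scores, 48 relations in all. By Pearson's r 11 passed an adjusted p of 0.05. Those were 5 of 8 for the endothelial, 4 of 8 for the mural and 2 of 8 for the muscle score in KO libraries. In WT libraries 0 passed. The 2 with the muscle score were Ednra (r = 0.97, rho = 0.88, exact permutation p = 2.98e-04 and 0.00724, adjusted 0.00893 and 0.0579) and Calcrl (r = 0.85, rho = 0.86, p = 0.00486 and 0.0107, adjusted 0.0382 and 0.0643). No Spearman relation passed. The endothelial and mural scores moved together in the knockout (r = 0.99, rho = 0.95; exact permutation p = 1.98e-04 and 0.00114, n = 8), and both rose with muscle RNA. Mural and muscle scores also moved together in the wild type (r = 0.98, rho = 0.90; exact permutation p = 4.46e-04 and 0.00456, n = 8). The mural score can therefore not be told apart from muscle RNA here. By muscle score the libraries form separate clusters, knockout replicates 6, 7 and 8 against the other 5, which limits its r values. These relations therefore share the same few libraries.

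Adm was lower where the endothelial score was higher. Its correlation with the endothelial score in the knockout was r = -0.96 and rho = -0.90 (exact permutation p = 3.72e-04 and 0.00456, adjusted 0.00893 and 0.0548, n = 8). The other 4 endothelial relations that passed were positive. They were Ednra (r = 0.90, rho = 0.76, exact permutation p = 0.00637 and 0.0368, adjusted 0.0382 and 0.136), Ednrb (r = 0.89, rho = 0.90, p = 0.00285 and 0.00456, adjusted 0.0274 and 0.0548), Edn1 (r = 0.86, rho = 0.93, p = 0.00955 and 0.00223, adjusted 0.0458 and 0.0548) and Calcrl (r = 0.81, rho = 0.86, p = 0.0114 and 0.0107, adjusted 0.0496 and 0.0643). Apln (r = 0.44, rho = 0.24, exact permutation p = 0.283 and 0.582, adjusted 0.484 and 0.682), Ramp1 (r = 0.37, rho = 0.55, p = 0.385 and 0.171, adjusted 0.528 and 0.357) and Ramp2 (r = 0.04, rho = 0.24, p = 0.912 and 0.582, adjusted 0.932 and 0.682) did not pass. Without the 2 libraries farthest from the median score, r was -0.95 for Adm, 0.90 for Ednra, 0.81 for Ednrb, 0.67 for Edn1 and 0.75 for Calcrl, and with 6 libraries none of the 48 passed. In the wild type, where the endothelial score ranged only from 1.05 to 1.84, no relation passed.

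**Figure D5:**
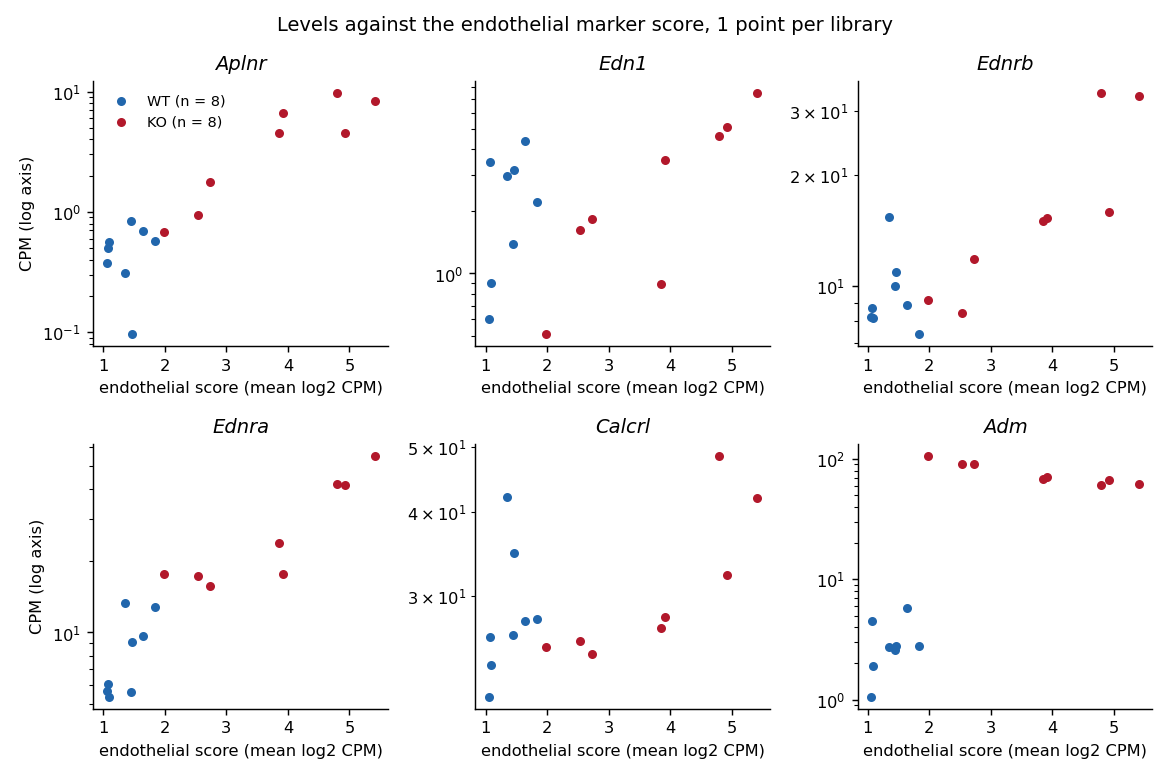
Level in CPM (log axis) of 6 genes against the endothelial marker score (mean log2 CPM of 12 markers), with 1 point per library, WT in blue and KO in red. In the knockout Aplnr, Edn1, Ednrb, Ednra and Calcrl were mostly higher where the score was higher, and Adm was lower.

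After centring within genotype, some pairs of members varied together over the 16 libraries and others did not, with values in between. Calcrl went with Ednrb (r = 0.88), Ednra (0.83) and Edn1 (0.71), and Ednra with Ednrb (0.72). Ramp1 went with Edn1 (0.70) and less closely with Calcrl (0.53) and Adm (0.48). Apln and Adm had an r of 0.13 with each other. The gene most like Calcrl among 13414 ranked was Tek (r = 0.92), the angiopoietin receptor of endothelium, followed by Mustn1 (0.91) and Fxyd1 (0.89). Tek itself was not called between the genotypes (log2 fold change -0.08), unlike 10 of the 12 tested endothelial markers, which rose. The gene most like Edn1 was Ace (0.89). Ednra was most like Filip1 (0.94) and Ednrb most like Abcg2 (0.89), a transporter. Adm was most like Barx2 (0.82), Ramp1 like Smim19 (0.88) and Ramp2 like Adam9 (0.95). These are descriptions over libraries that share depth and tissue makeup, and the best of 13414 values is high by selection.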

How the data were processed

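RNA of tail tendon fascicles was sequenced in 16 libraries, grouped by the genotype in their labels. The deposited files hold raw whole-number counts per gene, per the file headers. The submitters' processing notes name GRCm39, kallisto and featureCounts, and their roles, versions and use of strand are not given in the sources used here. Of 25719 identifiers, 25614 matched a symbol. The main test was edgeR 4.0.16 (R 4.3.3): quasi-likelihood F test, two-sided, TMM, default expression filter on genotype, genotype as the only term, and Benjamini-Hochberg adjustment over 14803 tested genes, called at an adjusted p under 0.05. A group at or under 3 counts in every library was treated as at the floor. Floors cover counting error only. CPM used TMM-scaled library sizes, and log2 CPM a prior count of 2. Ratios were compared with exact permutation tests, and correlations with exact permutation over 40320 pairings. Exon overlaps and lengths come from GENCODE M21, so gene positions are not printed.

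The members and lists were chosen with earlier results of these data known. All members were named, and from each pathway list the called genes with the 4 largest increases and 4 largest decreases, with 3 genes per member for likeness. Listed genes named outside that rule were picked for their role after their values were seen. Some genes that the rule gave are not reported here. The marker lists were endothelial, lymphatic endothelial, mural, erythroid, skeletal muscle, Schwann, melanocyte, macrophage, keratinocyte, adipocyte, tenocyte and HIF targets. On counts simulated with the same dispersion for all genes and no difference in tissue makeup, 193 of 200 changed genes were called among 14990 tested, with 11 unchanged ones. The simulation does not cover libraries that differ in muscle or vessel RNA, as these do. No libraries were repeats (lowest chi-square per degree of freedom 6.56). Alternatives were DESeq2 1.42.0 (size factors, Wald test), limma 3.58.1 voom with quality weights, total counts, other filters and prior counts, muscle or Y-linked level as a covariate, a replicate block, each library left out, and, chosen after seeing the data, 4 libraries left out together.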

Additional observations from a re-analysis of the deposited data

Results flagged for a closer look

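Adm2 in wild type replicate 4 stood apart from the other 7 wild type libraries, at a log2 CPM of -1.79 where the next highest was -2.73. It had 2 counts (0.139 CPM) and the others 0, below the floor of 3 counts. Among 44 checks of this kind 1 stood apart, and chance gives about 1 in 20.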

How the results depend on the processing

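Of the members, Apln, Adm, Ednra and Ramp1 kept their direction and their call under each of 10 alternative fits and in each of 16 fits without 1 library. Ednrb lost its call with a muscle score covariate (0.51, adjusted p = 0.167), without the 4 libraries of the highest muscle score (0.25, adjusted p = 0.296) and with a replicate block (0.75, adjusted p = 0.0716). Ramp2 gained a call with total counts (0.49, adjusted p = 5.91e-04). It was 0.14 to 0.24 with each library left out, and passed without knockout replicate 1 (0.24, adjusted p = 0.0338). Calcrl and Edn1 changed sign with that covariate (-0.04 and -0.13) and without the 4 libraries (-0.14 and -0.50), never with a call. The number of correlations called fell from 11 to 0 without the 2 libraries farthest from the median score, where 6 libraries remained. No ratio changed its call with other prior counts, with a replicate block or with each library left out. The ratios were not fitted again with a muscle score covariate or without the 4 libraries, so their dependence on muscle RNA was not tested. The called members numbered 4 to 7. Of the lists, other vasoactive genes had 8 calls without the 4 libraries and 20 with no expression filter (11 as reported), other endothelin genes 1 to 3, Schwann markers 1 to 4, macrophage markers 3 to 8 and muscle markers 0 to 7. Without the 4 libraries 11 endothelial and 7 mural markers passed. Calls over all genes ran from 6101 without the 4 libraries to 9664 with total counts, and from 6790 to 7151 with a library left out. The cause of these shifts was not tested. Same-numbered libraries of the genotypes did not deviate together (r from -0.397 to 0.394, over 0.1 for 3 of 8), and only 1 of 8 correlated best with its own number, so the numbers were not taken as a pairing. With the replicate block 7011 genes were called in place of 7150. Depth limits Aplnr, Ramp3 and the wild type levels of Apln and Adm2, which rest on a few counts.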

Other observations

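Markers of lymphatic endothelium did not move together: of 3 tested, 2 fell and 1 did not pass. Lyve1, a hyaluronan receptor of lymphatic endothelium and some macrophages, fell from 91.6 ± 19.7 CPM in the wild type to 34.1 ± 6.79 CPM in the knockout (SD, n = 8), with no overlap (log2 fold change -1.43). Ccl21a, a chemokine gene of lymphatic vessels with near-identical copies in the mouse genome, ran from 1.93 to 4.31 CPM in the wild type and had at most 1 count in any knockout library, at least 11.5-fold lower. Prox1, the transcription factor of lymphatic identity, was at 1.64 ± 1.55 and 1.70 ± 0.613 CPM (SD, n = 8) and did not pass (log2 fold change 0.00; edgeR quasi-likelihood test, adjusted p = 0.994). The untested Flt4, a receptor of lymphatic and growing blood vessel endothelium, had at most 1 count in any wild type library and 2.02 ± 1.66 CPM in the knockout (SD, n = 8), at least 6.03-fold higher than the floor of 3 counts. It was above the highest wild type library in 7 of 8 knockout libraries. Mmrn1 had 0 counts in the wild type and at most 2 in a knockout library.

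The other marker lists gave these counts, beside 25.6% of all tested genes called higher and 22.7% lower. All 5 tested erythroid markers rose, and their summed level was 77.1 to 559 CPM in the knockout and 15.1 to 50.5 CPM in the wild type. Of 12 tenocyte markers 3 rose and 7 fell. Of 9 macrophage markers 4 rose and 0 fell, of 7 Schwann cell markers 2 rose and 0 fell, of 3 keratinocyte markers 1 rose and 2 fell, and of 2 melanocyte markers 1 rose and 1 fell, while Mlana, Tyr and Dct were at or under 3 counts in every library. The 1 tested adipocyte marker did not pass. All 18 HIF targets outside the members rose, with a median log2 fold change of 3.04.

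Kinin and angiotensin genes under the filter were low. The bradykinin receptor gene Bdkrb2 had at most 4 counts in a wild type library and 0.427 to 4.21 CPM in the knockout, with no overlap. Agt, the angiotensin precursor gene, was at 0.340 to 1.11 CPM in the knockout and at most 3 counts in the wild type.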
